A study of Mus musculus with 6 samples.

Results

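The branched-chain amino acids leucine, isoleucine and valine are broken down in mitochondria by a shared pair of first steps and then by separate routes. A transaminase (Bcat1 in the cytosol, Bcat2 in mitochondria) moves the amino group to 2-oxoglutarate, which yields glutamate. The branched-chain 2-oxoacid dehydrogenase complex (BCKDH) then removes carbon dioxide from the resulting keto acid. Its E1 component (Bckdha and Bckdhb) decarboxylates the keto acid, its E2 core (Dbt) carries the acyl group on lipoate and passes it to coenzyme A, and its E3 component (Dld) reoxidises the lipoate. The kinase Bckdk switches the complex off and the phosphatase Ppm1k switches it on. In neural tissue the transaminase step is known as a source of nitrogen for glutamate.

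Expression of 10 genes of this pathway was examined in N2A cells, a mouse neuroblastoma line, out of 19938 genes that the array annotation names by a probe set of their own. The genes were Bcat1, Bcat2, Bckdha, Bckdhb, Dbt, Bckdk, Ivd, Mccc1, Mccc2 and Acad8, and each was represented by 1 probe set whose annotated symbol was exactly that of the gene. They were chosen by symbol, with the knockdown against control values of these arrays already known. Values of that comparison are therefore given for them as a description, without p-values.

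In this study cells were transiently transfected with 1.5 ug of an expression construct for a short hairpin RNA (shRNA). In 3 samples the shRNA targeted Dali, a long non-coding RNA (Dali knockdown), and the other 3 received a non-targeting vector (control). RNA was taken 2.5 days later, with no selection of transfected cells described, and 200 ng was labelled for Affymetrix Mouse Gene 1.0 ST arrays. Values are log2 after robust multi-array averaging (RMA), so that a difference of 1 is a change of 2-fold, and replicate numbers 1 to 3 come from the sample labels. The replicates are described as biological, without the cultures they came from, so the spread between samples may be partly technical.

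The hairpins that the study designed against Dali are shown because they define the treatment. The sources used here list 4 of them and do not say which was used for the arrays. Each is written 5′ to 3′, with the 17 bases of the sense stem in capitals and the loop, antisense stem and terminator in lower case.
Linc8sh74For: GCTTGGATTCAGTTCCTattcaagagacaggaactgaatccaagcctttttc
Linc8sh862For: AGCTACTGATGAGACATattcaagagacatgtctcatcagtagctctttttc
Linc8sh906For: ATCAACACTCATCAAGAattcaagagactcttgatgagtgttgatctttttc
Linc8sh1000For: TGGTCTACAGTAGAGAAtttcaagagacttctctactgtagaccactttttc

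Array medians lay between 7.86 and 7.93, and correlations between arrays over annotated probe sets between 0.9904 and 0.9975. No probe set was annotated to Dali (0 found), so its depletion was not analysed here. Of 14 neuroblastoma identity genes with a probe set (among them Phox2a, Hand2 and Gata3), 13 had a mean above the median of all values, while the macrophage and glial lists had 0 of 7 each above it and the endothelial and epithelial lists 1 of 7 and 1 of 6. In the fibroblast list 2 of 8 were above it. None of these lists held a called probe set (calls are defined below), beside 1.14% of all probe sets tested. With the replicate block, also described below, 1 fibroblast probe set was called, beside 7.65% of all tested. Nothing about cell identity is read from these counts. The median difference of the identity list was -0.12, and those of the other lists lay between 0.03 and 0.06.

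Of the chosen genes, Dbt had the largest difference. Its log2 value was 9.15, 9.24 and 9.30 in Dali knockdown replicates 1, 2 and 3, against 9.96, 9.92 and 9.81 in control replicates 1, 2 and 3. All knockdown arrays lay below all control arrays, and the gap between the groups was wider than the range within either (0.14 in knockdown and 0.15 in control cells). The means were 9.23 ± 0.07 in knockdown and 9.89 ± 0.08 in control cells (SD, n = 3 each). The difference was -0.66 (SE 0.13), which left 63.1% of the control level, a 1.58-fold reduction. Within pairs of the same replicate number it was -0.80, -0.68 and -0.51. The size varied, while the sign is the same for any pairing because the groups did not overlap. In the pair numbered 1, which had the largest Dbt difference, the medians of the 5 marker lists of other cell types were also higher in knockdown (0.12 to 0.25), against -0.11 to 0.02 in the pairs numbered 2 and 3. Most genes of those 5 lists had means below the median of all values, as given above. The median of the neuroblastoma identity list was -0.13, -0.05 and -0.11 in the pairs numbered 1, 2 and 3. The part of these lists in the Dbt value was not tested, and without knockdown replicate 1 the Dbt difference was -0.62. In bulk RNA such a difference may come from all cells or from a share of them, and these cannot be told apart.

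A probe set was called when limma gave a Benjamini-Hochberg adjusted p under 0.1 over all probe sets tested and the change was at least 1.3-fold. Of the 10 genes, 8 were kept by the filter on variance, 1 was called (Dbt, lower) and 7 were not. Ivd and Acad8 were removed by that filter and were not tested. Over all 11705 probe sets tested, 1.14% were called, 0.769% as lower and 0.367% as higher. Those called as lower differed by -0.51 to -1.54, and Dbt was not among the largest of them. As the genes were chosen with these values known, the call describes where Dbt lies in the fit and is no test of it, and nothing is read from the count. Dbt was also not called without knockdown replicate 1, without control replicate 1, or when rows without a gene name entered the filter, where 4, 53 and 0 probe sets of the whole array were called in place of 133. Its difference without each of those arrays was -0.62 and -0.63.

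**Figure D1:**
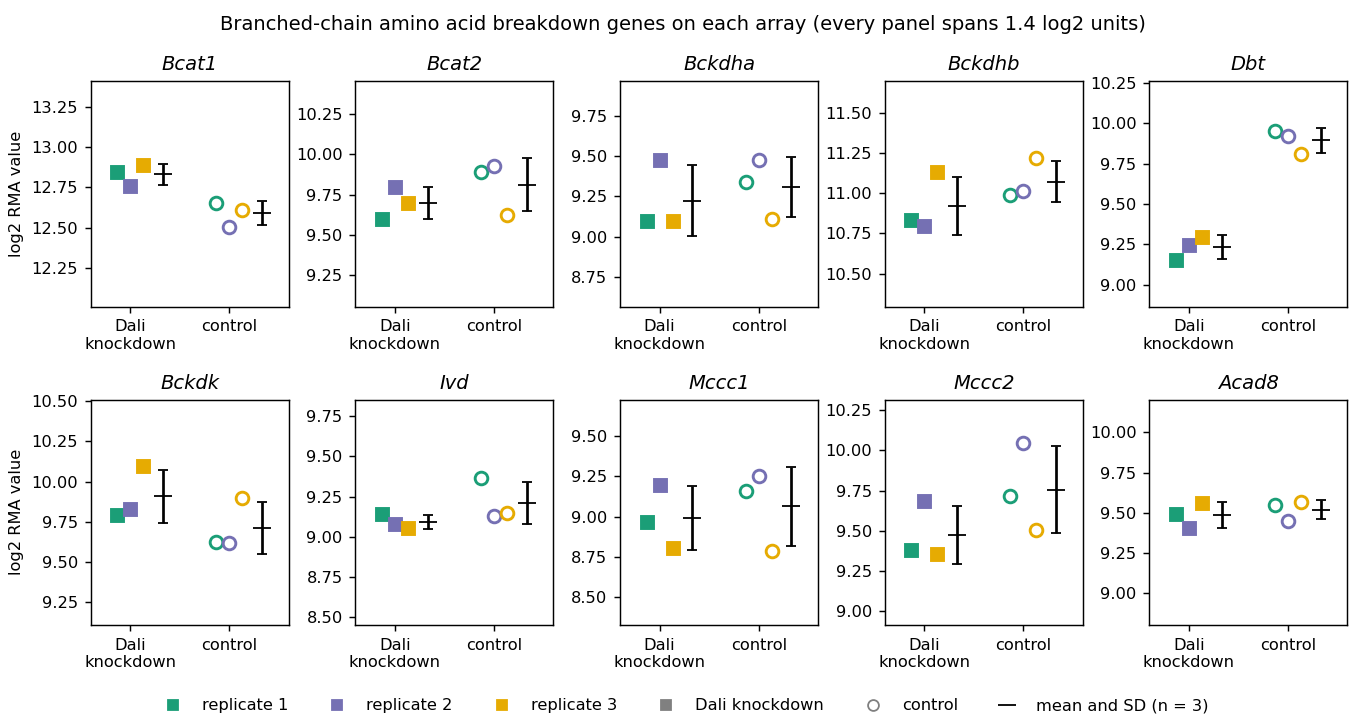
Log2 RMA values (vertical axes) of the 10 genes on each array, with Dali knockdown as filled squares on the left and control as open circles on the right of every panel, coloured by replicate number. Black bars are the mean and SD (n = 3). The groups stand apart for Dbt (means 9.23 in knockdown and 9.89 in control cells) and for Bcat1 (12.83 and 12.59), and overlap in the other 8 panels.

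The partners of Dbt in the BCKDH complex had differences nearer to 0. Bckdhb, the E1 beta subunit, had log2 values of 10.83, 10.80 and 11.13 in knockdown, against 10.99, 11.01 and 11.22 in control replicates. Knockdown replicate 3 lay above control replicates 1 and 2, so the groups overlapped, although each knockdown array was below the control array of its number (by -0.15, -0.21 and -0.09). The difference of means was -0.15 (SE 0.14). Bckdha, the E1 alpha subunit whose phosphorylation turns the complex off, had values of 9.10, 9.48 and 9.10 in knockdown, against 9.34, 9.48 and 9.11 in control cells. Replicate 2 was the high array in both groups, and the difference of -0.09 (SE 0.15) was smaller than the spread between replicates. Dld, the E3 subunit that BCKDH shares with the pyruvate and 2-oxoglutarate dehydrogenase complexes, is not one of the 10 genes and was removed by the variance filter. It measured 11.27, 11.20 and 11.23 in knockdown, against 11.08, 11.15 and 11.27 in control cells, a difference of 0.07 (SE 0.08).

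Relative to its partners on the same array, Dbt was therefore lower in knockdown than in control cells. The log2 gap between Dbt and Bckdhb changed by -0.65, -0.47 and -0.42 in the pairs numbered 1, 2 and 3. Against Bckdha the gap changed by -0.56, -0.68 and -0.50, and against Dld by -0.99, -0.72 and -0.47. The E2 genes of the sister complexes had differences of the opposite sign to Dbt. Dlat was not called, and Dlst (0.14, SE 0.08) was removed by the variance filter. Dlat, the E2 of pyruvate dehydrogenase, differed by 0.27 (SE 0.14, limma adjusted p = 0.44), and the gap between Dbt and Dlat changed by -1.004, -0.96 and -0.82 in the pairs. Against Dlst, the E2 of 2-oxoglutarate dehydrogenase, it changed by -0.94, -0.81 and -0.66. All of these within-pair changes were below 0. They contain the Dbt differences already given, so they are not independent of each other and add no support beyond those.

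The regulators of the complex had differences of opposite sign. Bckdk had log2 values of 9.79, 9.83 and 10.10 in knockdown, against 9.62, 9.62 and 9.90 in control cells. The groups overlapped because replicate 3 was the high array in both, but the difference within pairs was nearly the same each time (0.17, 0.21 and 0.20). The mean difference was 0.20 (SE 0.14) and Bckdk was not called. Ppm1k, the phosphatase that opposes it, measured 8.00, 8.38 and 7.53 in knockdown, against 8.70, 8.81 and 7.93 in control cells. Replicate 3 was the low array in both groups, and each knockdown array lay below its pair (-0.70, -0.44 and -0.40). The difference of -0.51 (SE 0.22) was not called by limma (adjusted p = 0.34), and was called as lower with the replicate block (adjusted p = 0.015). Ppm1k was named whatever its value, as a gene of the pathway outside the 10.

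The transaminases also differed in sign. Bcat1, the cytosolic enzyme, had log2 values of 12.85, 12.76 and 12.89 in knockdown, against 12.66, 12.51 and 12.61 in control cells. All knockdown arrays lay above all control arrays, with means of 12.83 ± 0.07 and 12.59 ± 0.08 (knockdown and control, SD, n = 3 each). The difference was 0.24 (SE 0.13), or 1.18-fold, and lay below the 1.3-fold limit of the call. Bcat2, the mitochondrial enzyme, measured 9.60, 9.80 and 9.70 in knockdown, against 9.89, 9.93 and 9.62 in control cells. The groups overlapped, the pair numbered 3 had the opposite sign (0.08, against -0.29 and -0.13), and the mean difference was -0.11 (SE 0.14). Dbt and Bcat1 were the 2 of 10 genes whose groups did not overlap, where 15.4% of all 23410 annotated probe sets did not (6.84% lower and 8.59% higher in knockdown).

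In the leucine route, isovaleryl-CoA dehydrogenase (Ivd) is followed by methylcrotonyl-CoA carboxylase, a biotin enzyme built from Mccc1 and Mccc2, and by the hydratase Auh. Mccc2 had log2 values of 9.38, 9.68 and 9.36 in knockdown, against 9.72, 10.05 and 9.51 in control cells. Every knockdown array lay below its pair (-0.33, -0.36 and -0.15), while replicate 2 was high in both groups and the groups overlapped. The difference of -0.28 (SE 0.16) was the second largest decrease among the 10 genes and was not called. Mccc1, the biotin-carrying partner, measured 8.97, 9.20 and 8.81 in knockdown, against 9.16, 9.25 and 8.79 in control cells. Its difference of -0.07 (SE 0.16) was within the spread, and the sign turned (to 0.02) without knockdown replicate 3 or without control replicate 2. Ivd had values of 9.14, 9.08 and 9.05 in knockdown, against 9.36, 9.13 and 9.15 in control cells, a difference of -0.12 (SE 0.09) in which control replicate 1 was the high array.

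The valine route was represented by Acad8, isobutyryl-CoA dehydrogenase. It showed the smallest difference of the 10 genes, with 9.49, 9.40 and 9.56 in knockdown, against 9.55, 9.45 and 9.56 in control cells (-0.03, SE 0.08). Acadsb acts at the same step of the isoleucine route, and was singled out after its values were seen. It measured 8.61, 9.29 and 8.62 in knockdown, against 9.42, 9.64 and 9.11 in control cells. The groups overlapped only through knockdown replicate 2, and the difference within pairs was -0.81, -0.35 and -0.49. With a mean difference of -0.55 (SE 0.18) Acadsb was not called by limma (adjusted p = 0.20), and was called as lower with the replicate block (adjusted p = 0.018).

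**Figure D2:**
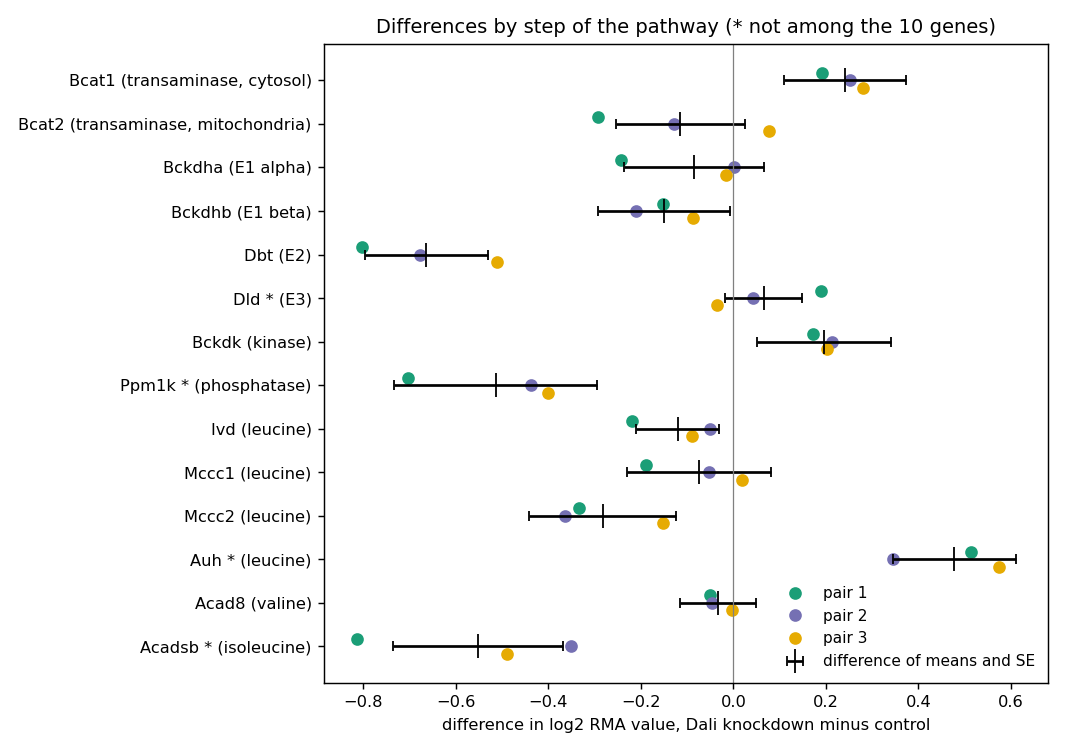
Differences in log2 RMA value, Dali knockdown minus control (horizontal axis), for the 10 genes and, marked by an asterisk, Dld, Ppm1k, Auh and Acadsb, in the order of the pathway (vertical axis). Each coloured point sets a knockdown array against the control array of its number, and the black bar gives the difference of group means with its SE. Dbt lies at -0.80, -0.68 and -0.51 in the 3 pairs, Bcat1 and Bckdk lie above 0 in each pair, and Acad8 lies between -0.05 and 0.00.

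Over the 10 genes together, 8 had a lower mean in knockdown and 2 (Bcat1 and Bckdk) a higher one, with a median difference of -0.10, or -0.09 over the 9 without Dbt. The median over all annotated probe sets was 0.02 and 44.8% of them had a lower mean in knockdown. Dbt, Bckdhb, Ivd, Mccc2 and Acad8 were lower in 3 of 3 pairs, Bcat1 and Bckdk were higher in 3 of 3, and Bckdha, Bcat2 and Mccc1 were mixed. The same sign in all pairs was seen for 41.4% of annotated probe sets (19.7% lower, 21.7% higher). Beside Dbt, the differences were between 0.03 and 0.28 in size.

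Several of these genes were highest on arrays of the same replicate number in both groups. Bckdha, Bcat2, Mccc1 and Mccc2 were so in replicate 2. For Mccc2 knockdown replicate 2 lay 0.21 and control replicate 2 0.29 above its group mean. Bckdhb, Bckdk and Acad8 were highest in replicate 3 of both groups, by 0.21 and 0.15 for Bckdhb in knockdown and control cells. Of all annotated probe sets, 15.8% were highest in replicate 2 of both groups and 20.1% in replicate 3 of both. Dbt took no part in either pattern, since its highest array was replicate 3 in knockdown and replicate 1 in control cells, with deviations of at most 0.09. Over the 6 arrays, which include the difference between groups, Pearson correlations with Dbt ran from -0.88 for Bcat1 and -0.59 for Bckdk to 0.65 for Mccc2, as a description over 6 arrays that share 2 groups.

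**Figure D3:**
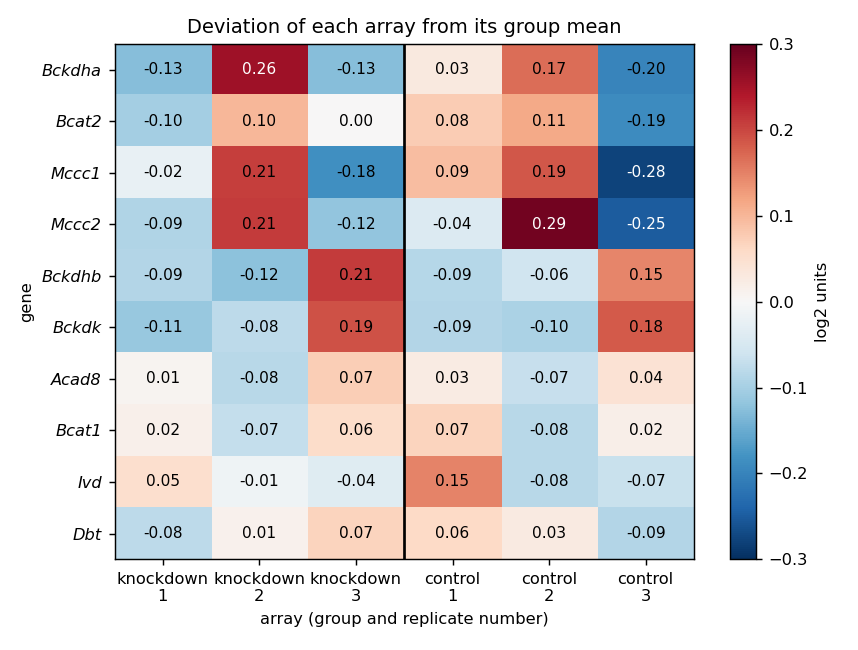
Deviation of each array (columns, knockdown left of control) from the mean of its group in log2 units, for the 10 genes (rows). Red is above and blue below the group mean. Bckdha, Bcat2, Mccc1 and Mccc2 are red in replicate 2 of both groups, Bckdhb and Bckdk in replicate 3 of both, and the row of Dbt stays within 0.09 of 0.

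The further steps of the pathway and related enzymes were examined as 9 lists with 78 probe sets for 75 genes. Of the 47 probe sets tested, 1 was called by limma, as lower, and 0 as higher, beside 0.769% and 0.367% of all probe sets tested. With the replicate block 11 were called as lower, both probe sets of Hadhb among them, and 1 as higher. Of all probe sets tested the block called 7.65%, with 572 lower and 324 higher. The lists were written with earlier results of these data known, and the Hadhb probe sets count 1 gene more than once. Nothing is therefore read from these counts. The median difference over the 78 was -0.04.

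The gene called was Btd, biotinidase, which frees biotin for reuse by the carboxylases. It measured 8.26, 8.38 and 8.21 in knockdown, against 8.84, 8.75 and 8.80 in control cells, without overlap. Btd fell by 0.52 on the log2 scale (SE 0.13, limma adjusted p = 0.0997), just inside the threshold, and was not called without the variance filter or when arrays were centred on their medians (adjusted p = 0.11 for both), with a mean-variance trend (0.105) or when rows without a gene name entered the filter (0.40). Nor was it called without knockdown replicate 1 or 3 or without control replicate 1 or 2 (adjusted p = 0.42, 0.20, 0.26 and 0.24). Btd was called as lower with the replicate block (adjusted p = 0.013) and with dim probe sets left out in place of the filter (0.075). It was also called without knockdown replicate 2 (0.057) or control replicate 3 (0.086). The other 4 genes for attaching lipoate or biotin lay between -0.15 and 0.13.

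Auh, which hydrates methylglutaconyl-CoA in the leucine route, had a difference of the opposite sign to Dbt. Its values were 10.46, 10.45 and 10.54 in knockdown, against 9.95, 10.11 and 9.97 in control cells, also without overlap. The difference of 0.48 (SE 0.13) had a limma adjusted p of 0.12, and was called as higher with the replicate block (adjusted p = 0.015). Oxct1, which activates the ketone body acetoacetate, differed by 0.21 and was not tested after the variance filter. The leucine list had a median of 0.21 over 3 probe sets, all with a higher mean.

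In the later valine and isoleucine steps 13 of 15 probe sets were lower on average in knockdown (median difference -0.08), as were 44.8% of all annotated probe sets, and 0 of 9 tested were called. Hadhb, the thiolase subunit of the mitochondrial trifunctional protein, had 2 probe sets with differences of -0.49 and -0.50 (limma adjusted p = 0.12 for both), called as lower with the replicate block (0.018 for both). One of them measured 9.86, 10.18 and 9.97 in knockdown, against 10.52, 10.49 and 10.48 in control cells, without overlap. The probe sets of Hibadh, a dehydrogenase of the valine route, disagreed. One, with means of 11.51 in knockdown and 11.45 in control cells, differed by 0.07 and was removed by the variance filter. The other, with means of 7.56 and 8.11, differed by -0.55 (SE 0.18, adjusted p = 0.19, called with the block at 0.062). In this second one knockdown replicate 1 was low (7.09, against 7.60 and 7.98 in knockdown replicates 2 and 3). Among 8 probe sets for the steps from propionyl-CoA to succinyl-CoA, 6 had a lower mean and 0 of 3 tested were called. Pccb, a propionyl-CoA carboxylase subunit, differed by -0.20 and was removed by the variance filter. Mmut, methylmalonyl-CoA mutase, also differed by -0.20 and was tested but not called (limma adjusted p = 0.58).

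Carriers of branched-chain amino and keto acids showed 0 calls among 8 tested. Slc7a6, an exchanger of cationic and large neutral amino acids, measured 11.52, 11.82 and 11.78 in knockdown, against 12.12, 12.24 and 12.34 in control cells. Its difference of -0.52 (SE 0.14) had a limma adjusted p of 0.11, or 0.011 with the replicate block, where it was called as lower. Slc7a7, another exchanger of cationic amino acids, was singled out after its values were seen. It differed by -0.40 and was the other carrier called as lower with the block (limma adjusted p = 0.51 without the block and 0.031 with it). The monocarboxylate carrier Slc16a1 differed by -0.21 (adjusted p = 0.53). In the pyruvate and 2-oxoglutarate dehydrogenase list 9 of 16 probe sets were higher on average in knockdown (median difference 0.04) and 0 of 11 tested were called. Pdp2, a phosphatase of pyruvate dehydrogenase, differed by -0.45 (adjusted p = 0.17, or 0.023 and called as lower with the block). Pdk2, a kinase of pyruvate dehydrogenase, was also singled out after its values were seen. It differed by -0.42 (adjusted p = 0.51, or 0.037 and called as lower with the block).

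Relatives of Ivd and Acad8 in the acyl-CoA dehydrogenase family had a median of -0.05 over 12 probe sets, with 0 of 9 tested called. Acad11, which acts on longer acyl chains, differed by -0.43 (limma adjusted p = 0.21, or 0.018 and called as lower with the block), and Gcdh, the dehydrogenase of lysine breakdown, by -0.25 (0.46). The other biotin carboxylases had a median of 0.18 over 3 probe sets. Acaca, of fatty acid synthesis, differed by 0.20 and 0.18 at its 2 probe sets (adjusted p = 0.56 and 0.64) and Acacb by 0.03.

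**Figure D4:**
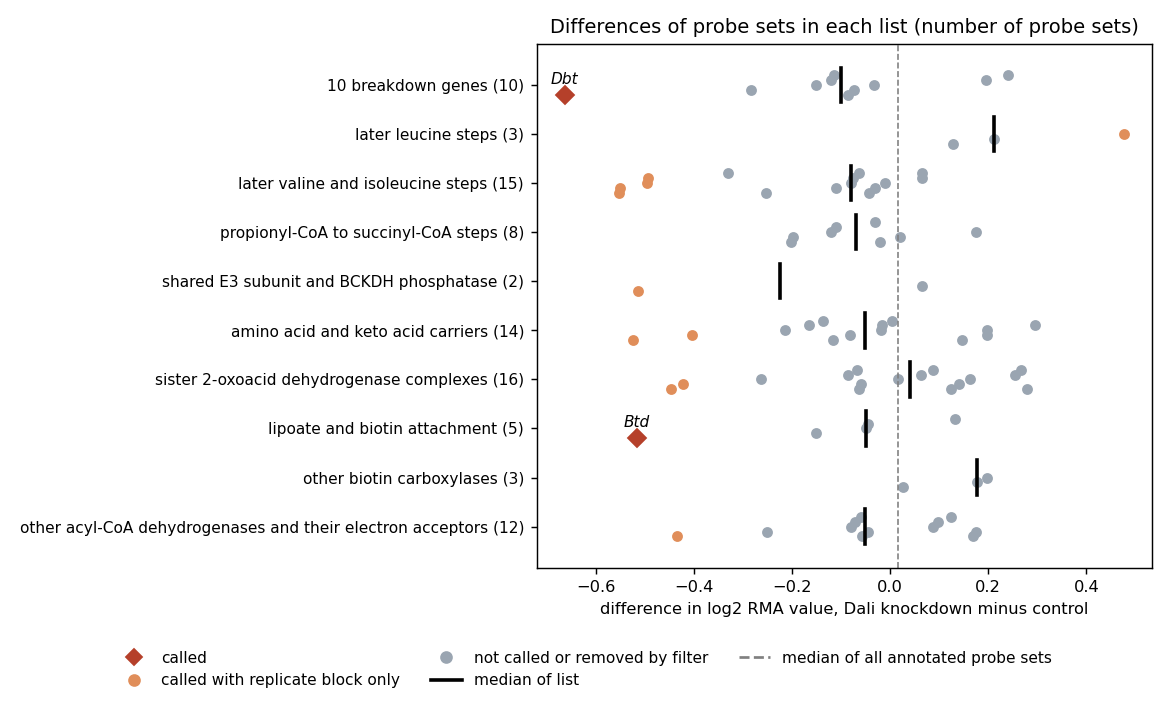
Differences in log2 RMA value, Dali knockdown minus control (horizontal axis), of each probe set in the 10 breakdown genes and the 9 further lists (rows, with the number of probe sets). Red diamonds were called, orange points were called with the replicate block only, black bars are list medians and the dashed line is the median of all annotated probe sets (0.02). Dbt (-0.66) and Btd (-0.52) are the only diamonds.

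The probe sets most like Dbt over the 6 arrays, among 21788 with 1 gene symbol, were those of Rab31, Gm807, Gstk1, Chchd10 and Mrgpre, with Pearson correlations of 0.996, 0.994, 0.992, 0.992 and 0.991. Rab31, a small GTPase of vesicle transport, measured 10.30, 10.40 and 10.46 in knockdown, against 11.02, 10.99 and 10.96 in control cells, and differed by -0.61. Chchd10, a mitochondrial protein gene, differed by -0.86, Mrgpre by -0.61, the glutathione transferase gene Gstk1 by -0.52 and Gm807 by -0.33. The likeness rests on 6 arrays and includes the difference between the groups.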

How the data were processed

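The authors background corrected the Affymetrix intensities, quantile normalised the arrays and summarised probe sets at the gene level (RMA), and the deposited values are log2. The versions they used are not given in the sources used here. Of 35556 rows, 23410 had a gene symbol (21789 a single one). Rows with several symbols named no gene. Member and list symbols matched a GRCm38.p6 gene table through Entrez numbers, with 0 differences.

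The study's methods name limma and a variance cut-off of 0.5. Reading that as the median interquartile range and applying it to annotated rows only were choices made here, and 0 probe sets were called with all rows in the filter. The 11705 probe sets kept were compared with limma 3.58.1 (lmFit, eBayes, two-sided) in R 4.3.3. SEs of probe sets removed by that filter come from the fit without it. The procedure was tested on simulated data with independent noise on each array. That test does not cover the correlation between same-numbered arrays given below. The number of arrays limits precision.

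Members and lists were chosen with earlier results of these data known. All members, Dld and Ppm1k were named, and of each list up to 2 called genes or, failing those, the 2 with the smallest p without the filter. Dlst, Acadsb, Slc7a7, Pdk1 and Pdk2 were added after their values were seen.

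Deviations of same-numbered arrays from their group means correlated by 0.14, 0.65 and 0.65 over annotated probe sets, for numbers 1, 2 and 3. Differences within pairs and a fit with a replicate block are therefore given beside the main fit, which is unpaired. For number 1 another pairing reached 0.20, above its own value, so that pair rests on the labels alone. The replicate block leaves 2 residual degrees of freedom in place of 4.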

Additional observations from a re-analysis of the deposited data

How the results depend on the processing

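The differences of Dbt, Bckdha, Bckdhb, Bckdk, Bcat1, Bcat2, Ivd and Mccc2 kept their sign under the 7 alternatives that change a difference (centring and leaving out each array), the other 5 leaving it as it is by construction. That of Mccc1 turned sign without Dali knockdown replicate 3 or control replicate 2 (range -0.21 to 0.02 when single arrays were left out), and that of Acad8 without Dali knockdown replicate 2 (-0.07 to 0.01). Dbt ranged from -0.71 to -0.62. The groups of Dbt and Bcat1 did not overlap, so leaving out an array could not turn their sign. Dbt was called under 9 of the 12 alternatives, which describes the fit and is no test of Dbt. The count of members called was 0 without Dali knockdown replicate 1, without control replicate 1 and with unnamed rows included in the filter. With those rows 0 probe sets of the whole array and 0 of the further lists were called. The replicate block gave 896 called probe sets, 12 of them in the further lists. Among the 12 were Auh, Acadsb, Btd, Hadhb, Hibadh (only its probe set at -0.55), Ppm1k, Slc7a6, Pdp2 and Acad11. The block changed no member's call. Of the genes just named, Auh, Acadsb, Btd, Hadhb, Slc7a6, Pdp2 and Acad11 were also called without Dali knockdown replicate 2. Pdk1, of the pyruvate and 2-oxoglutarate dehydrogenase list, was called there too. Its differences over all arrays were mixed in sign, at -0.43, 0.38 and -0.74 in the pairs numbered 1, 2 and 3. The same Hibadh probe set was called without Dali knockdown replicate 3, and Acadsb, Btd, 1 Hadhb probe set and Ppm1k without control replicate 3. Without the variance filter 41 probe sets were called, and 0 in the further lists. Centring the arrays on their medians also gave 0 there, and leaving out dim probe sets in place of the filter gave 5 (Auh, Btd, Slc7a6 and both probe sets of Hadhb). A mean-variance trend called Slc7a6 in place of Btd. Leaving out single arrays gave 4 to 508 called probe sets, 0 to 1 among the members and 0 to 9 in the further lists. The causes were not tested. Median centring moved the median of all probe sets by 0.01.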
